A study of Mus musculus with 9 samples.

Results

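The 10 genes of the MLL and menin machinery described here were followed through 9 RNA-Seq libraries of a mouse acute myeloid leukemia. They were chosen by gene name, as Kmt2a (MLL) and Men1 (menin), their tether Psip1, the histone methyltransferase Dot1l, and the MLL fusion partner genes Mllt1, Mllt3, Mllt10, Aff1, Aff3 and Aff4. All 10 were found among the 55401 genes of the tables (42643 with at least 1 read), and all 10 passed the filter on low values in every comparison.

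The leukemia is the H9M model, in which retroviral Hoxa9 and Meis1 expression transforms lineage-negative bone marrow cells of C57BL/6-Ly5.1 mice. In all 3 groups the cells were H9M cells marked with FGB-D vectors, which give each clone a color code, and they were transplanted into irradiated C57Bl6/J mice and recovered from the spleen as CD45.1+, EGFRt bright, cKit+ and CD11b dim or negative cells. Mouse #15 gave the 3 pre-malignant samples, 1 each of clone 33BC-D, clone 38BC-D and clone 43BC-D, at 4 weeks after transplantation. These clones were sampled again as de novo expanded at the leukemic endpoint, in mice #17, #13 and #14. Clone 34BC-D, recovered from the same endpoint mice, makes up all 3 stably expanded samples, which thus stand for 1 clone. This clone has no pre-malignant sample here, so between the stably expanded and pre-malignant groups clone cannot be told apart from stage. Differences from the pre-malignant group cannot be told apart from differences between mouse #15 and the endpoint mice, and p-values measure only the spread between these libraries. The labels tie a column of the tables to a group and not to a clone or mouse. Libraries are therefore numbered 1 to 3 within a group, in order of run number. The labels do not say which number is which clone or mouse.

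As background, MLL is a histone methyltransferase that places methyl groups on lysine 4 of histone H3 and keeps HOX genes active in blood progenitors. It binds chromatin together with menin and Psip1, the LEDGF protein. In MLL-rearranged leukemia, a translocation replaces the catalytic end of MLL by a partner protein. The common partners belong to a few transcription elongation complexes: Aff1, Aff3 and Aff4 are scaffolds of the super elongation complex, Mllt1 (ENL) and Mllt3 (AF9) are related YEATS-domain readers of acylated histones, and Mllt10 (AF10) is a cofactor of Dot1l, which methylates lysine 79 of histone H3. The H9M model places Hoxa9 and Meis1, targets of MLL and menin, under vector control and carries no MLL fusion, so the genes below are the normal mouse genes.

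The 3 genes whose levels differed most between libraries were Aff3, Mllt3 and Aff1. Their upstream sequences are shown because CpG-rich starts are the DNA that the CXXC domain of MLL binds when it is not methylated. Each is 250 bases before a RefSeq gene start in GRCm38.p6, written 5′ to 3′ along the gene, with CpG pairs in capitals.
Aff3, chr1:38627245-38627494, minus strand: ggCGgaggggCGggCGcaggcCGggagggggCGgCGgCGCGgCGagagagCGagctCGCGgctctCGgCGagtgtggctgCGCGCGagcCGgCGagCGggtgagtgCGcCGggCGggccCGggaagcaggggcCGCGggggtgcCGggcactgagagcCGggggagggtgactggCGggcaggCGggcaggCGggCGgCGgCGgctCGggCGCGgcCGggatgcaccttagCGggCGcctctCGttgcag
Mllt3, chr4:88033408-88033657, minus strand: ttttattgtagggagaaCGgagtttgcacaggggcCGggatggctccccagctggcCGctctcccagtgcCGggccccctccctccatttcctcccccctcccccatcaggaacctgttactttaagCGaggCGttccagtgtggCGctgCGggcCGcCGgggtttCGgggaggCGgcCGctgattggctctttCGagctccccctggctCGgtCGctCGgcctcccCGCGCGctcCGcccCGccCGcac
Aff1, chr5:103753912-103754161, plus strand: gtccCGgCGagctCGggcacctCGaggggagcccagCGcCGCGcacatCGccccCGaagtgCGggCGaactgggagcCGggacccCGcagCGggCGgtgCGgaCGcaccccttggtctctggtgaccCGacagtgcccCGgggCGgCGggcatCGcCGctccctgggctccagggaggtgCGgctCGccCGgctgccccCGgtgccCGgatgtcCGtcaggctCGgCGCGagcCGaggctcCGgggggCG
The Aff3 stretch holds 41 CpG pairs, more than 98.9% of 32851 such windows, the Aff1 stretch 35 (more than 97% of windows) and the Mllt3 stretch 23 (more than 86.7%). The median window held 6. Mllt3 and Aff1 each have another RefSeq start. The Mllt3 window there, chr4:87806324-87806573 inside the gene, holds 4 CpG pairs (more than 37.8% of windows), and that of Aff1, chr5:103754323-103754572 over an annotated exon, holds 20 (more than 82.1%). A RefSeq start was matched for 9 of the 10 genes, in 15 windows with 4 to 44 CpG pairs, and Psip1 had none. In the annotation of the deposited tables the Mllt3 stretch lies just upstream of the gene, on chromosome 4 from 87769925 to 88033364. Those of Aff3 (chromosome 1, 38177326 to 38664955) and Aff1 (chromosome 5, 103692374 to 103855322) lie at a start inside the gene, outside its annotated exons. On either strand, the 3 stretches shown held no match to TGACAG (a MEIS core, found in 15.9% of all windows), TGATNNAT (a HOX-PBX site, 7.68%), TGANTCA (an AP-1 site, 6.75%) or CACGTG (an E-box, 6.02%). The other Mllt3 window held 1 match to TGACAG, and the other Aff1 window held none of the motifs.

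Levels are given as normalized reads, that is, reads per gene divided by a size factor set over all 9 libraries. Reads on genes numbered from 10379739 to 15551196 per library. The sorted cells carried reads of the markers of their gate in every library: Kit ranged from 1937 to 3979, Itgam (CD11b) from 379.5 to 1188 and Ptprc (CD45) from 4238 to 5216 normalized reads. De novo expanded library 3 stood apart from its group. Its median absolute log2 difference over genes was 0.349 and 0.397 to the other two libraries of that group, which differed from each other by 0.228, and 0.246 to 0.274 to the stably expanded libraries. Its level of Mpo (myeloperoxidase) was 218100 normalized reads, against 22350 and 36040 in the other two. Summed over 7 B cell genes, libraries held 3042 to 3718 normalized reads in the pre-malignant group, 3063, 2234 and 1039 in de novo expanded libraries 1, 2 and 3, and 1188 to 1495 in the stably expanded group. The sum of 7 late neutrophil genes was 2932 to 3355, then 2593, 3041 and 8075, and 7714 to 61380 normalized reads in the same order. For 7 erythroid genes the sums were 325.7 to 769.1, 43.29 to 255.4 and 55.06 to 420.5, for 7 macrophage genes 3856 to 5238, 3045 to 4560 and 3736 to 4659, and for 7 T cell genes 24.93 to 41.87, 12.2 to 30.77 and 7.239 to 26.63. Of 5 platelet genes, 2 were listed at 0 in all libraries. The part of these differences in the results below was not tested, and in bulk RNA fewer cells of a type and less RNA per cell cannot be told apart.

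Per kilobase of annotated exon, the 10 genes spanned a wide range of levels. Over the 9 libraries, the median was 429 normalized reads per kilobase for Aff1, 288 for Psip1, 272 for Dot1l, 259 for Kmt2a, 248 for Mllt10 and 225 for Mllt1. The library ranges of neighbours in this order overlapped. A step down followed to Aff4 at 119, Aff3 at 41.5 and Men1 at 27.4 normalized reads per kilobase, and the range of Aff3 (4.61 to 116) overlapped with those of both its neighbours. Mllt3 was lowest, at 6.39, and its highest library (10.5) lay below the lowest Men1 library (20.7). Between the related readers, Mllt1 therefore exceeded Mllt3 in every library.

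**Figure D1:**
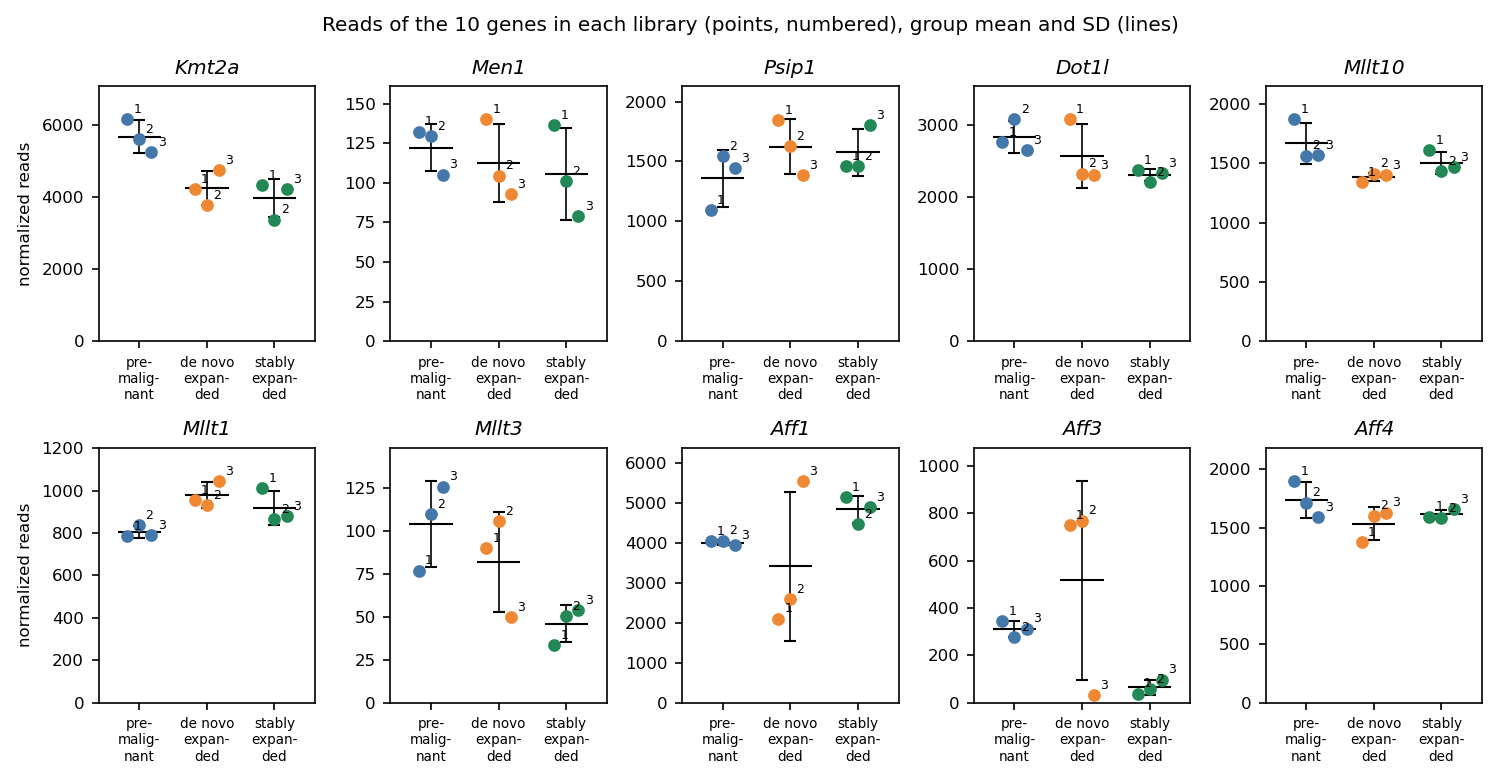
Normalized reads (linear axis from 0) of each of the 10 genes in the 3 groups. Points are libraries with their number, the long line is the group mean and the bars are the SD (n = 3). Aff3 lies between 276 and 345 in the pre-malignant group and below 100 in de novo expanded library 3 and all stably expanded libraries, while Aff4, Dot1l, Mllt10 and Mllt1 stay within a 1.39-fold range.

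Fold changes are on the log2(normalized count + 1) scale, from limma on the deposited values of the 6 libraries compared, with Benjamini-Hochberg adjusted p-values over all genes tested, two-sided. Calls required an adjusted p below 0.05 and a change of 2-fold or more. The first question was whether the machinery differs between a clone before and after it expands. Between the de novo expanded and pre-malignant libraries, limma called 0 of the 10 genes and 0% of the 14195 genes tested, and edgeR also called 0 of each (0%). An unadjusted p under 0.05 was found for 2 of the 10 (11.3% of all genes), Kmt2a and Mllt1. The libraries did not overlap for these and Mllt10, 3 of 10, against 19.1% of all genes. The median log2 difference of the 10 genes was -0.19, that of all genes 0.0079.

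The second question compared the pre-malignant libraries with the stably expanded clone. Here 2 of 10 genes were called, Aff3 and Mllt3, both lower in the stably expanded libraries. Of the 13968 genes tested, 2.75% were called and 1.55% were called lower. With edgeR the same 2 genes were called, against 2.7% of all genes. An adjusted p under 0.05 without the fold limit was reached by 3 of 10, with Kmt2a as the third (7.95% of all genes). An unadjusted p under 0.05 was found for 5 of 10 (25.4% of all genes), and 6 of 10 did not overlap between groups (30.7% of all genes). The median log2 difference was -0.19 over the 10 genes and 0.0042 over all genes. Both comparisons share the 3 pre-malignant libraries, and the comparison of the leukemic groups shares its libraries with them.

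Between stably and de novo expanded libraries, limma and edgeR each called 0 of 10 (0.00727% of 13758 genes), and 0 of 10 had an unadjusted p under 0.05 (4.83% of all genes). Mllt10 was the 1 gene of the 10 without overlap, against 9.61% of all genes. These counts changed without de novo expanded library 3. Aff3 was then called against the pre-malignant group (1 of 10, 1.5% of all genes), and Aff3 and Aff1 were called between the leukemic groups (2 of 10, 3.69% of all genes). Leaving out any other single library gave 0 of 10 in both comparisons. Library 3 was seen to stand apart in these same data, so these calls are no independent support. Each de novo expanded library is a different clone from a different mouse.

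**Figure D2:**
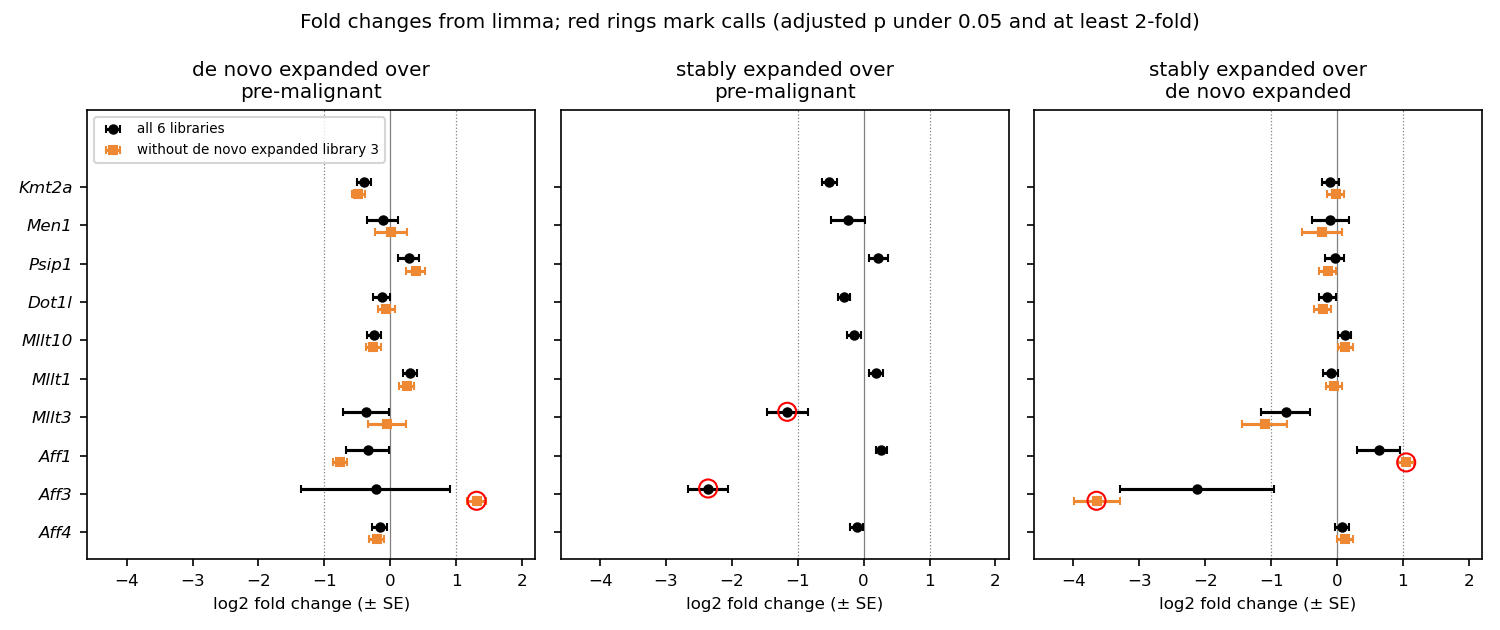
Log2 fold changes of the 10 genes from limma with standard errors, for the 3 comparisons. Black points use all 6 libraries, orange squares leave out de novo expanded library 3, dotted lines mark 2-fold and red rings mark calls. Aff3 (-2.36) and Mllt3 (-1.16) are ringed in the stably expanded over pre-malignant panel, and the largest shift on leaving out that library is that of Aff3.

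Kmt2a encodes MLL itself and lies on chromosome 9 from 44803355 to 44881296. Pre-malignant libraries 1, 2 and 3 had 6150.4, 5591 and 5248 normalized reads. There were 4223, 3779.8 and 4732 in the de novo expanded and 4317, 3368 and 4209 in the stably expanded libraries. All pre-malignant libraries lay above all 6 leukemic libraries. The mean was 5663 ± 456 (SD, n = 3) in the pre-malignant, 4245 ± 477 in the de novo expanded and 3965 ± 519.6 in the stably expanded group. The stably expanded libraries were lower by a log2 difference of -0.52 (SE 0.11, adjusted p = 0.0214 from limma), 1.43-fold and thus not a call. Its adjusted p rose to 0.0799 without pre-malignant library 1, to 0.078 without pre-malignant library 2 and to 0.0908 in 1 fit of all 9 libraries. For the de novo expanded libraries the log2 difference was -0.40 (SE 0.11, adjusted p = 0.38 from limma), and -0.48 (adjusted p = 0.0284) without library 3 of that group. The gene Gm48314 on the same strand overlaps Kmt2a and had 33 to 75 reads.

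Menin is encoded by Men1 on chromosome 19 (6334979 to 6340891). Men1 had 132, 129 and 105 normalized reads in the pre-malignant, 140.2, 105 and 92.9 in the de novo expanded and 137, 101 and 79.2 in the stably expanded group. The ranges of the 3 groups overlapped. Its log2 differences were -0.11 (SE 0.23) for de novo expanded and -0.24 (SE 0.25) for stably expanded over pre-malignant, both smaller than their errors, from 59 to 151 reads per library. The log2 ratio of Men1 to Kmt2a within a library was -5.53 ± 0.102 (SD, n = 3) in the pre-malignant, -5.24 ± 0.382 in the de novo expanded and -5.24 ± 0.409 in the stably expanded group.

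Psip1 (chromosome 4, 83455680 to 83486459), which links MLL and menin to chromatin, had 1094, 1544 and 1441 normalized reads in the pre-malignant, 1847, 1630.1 and 1388 in the de novo expanded, and 1463, 1464 and 1802 in the stably expanded libraries. Pre-malignant library 1 was the lowest, and the groups overlapped. The log2 difference from pre-malignant was 0.28 (SE 0.16, adjusted p = 0.547 from limma) in the de novo and 0.22 (SE 0.14, adjusted p = 0.351) in the stably expanded libraries. Snapc3, on the other strand, overlaps Psip1 and had 299 to 591 reads. How strand was set in counting is not given in the sources used here, so the share of such reads in Psip1 is not known.

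Dot1l, the H3 lysine 79 methyltransferase on chromosome 10 (80755206 to 80795461), had 2761, 3073 and 2648 normalized reads in the pre-malignant libraries. It had 3075, 2322 and 2305 in the de novo expanded and 2372, 2205 and 2327 in the stably expanded libraries. All stably expanded libraries lay below all pre-malignant ones, whereas de novo expanded library 1 was level with the highest pre-malignant library. The stably expanded over pre-malignant log2 difference of -0.29 (SE 0.09) had an adjusted p of 0.0737 from limma. The adjusted p was lowest after quantile normalization (0.0413), followed by centring on the median (0.057). It was 0.0694 with edgeR, 0.154 with no filter on low values, 0.158 with DESeq2 and 0.232 in 1 fit of all 9 libraries. Leaving out each library in turn gave 0.092 to 0.252.

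Its cofactor gene Mllt10 on chromosome 2 (18055237 to 18212388) had 1870.1, 1564 and 1568 normalized reads in the pre-malignant, 1341, 1412 and 1397 in the de novo expanded, and 1608, 1436 and 1465 in the stably expanded group. The de novo expanded libraries were the 3 lowest. Against the pre-malignant group the log2 difference was -0.24 (SE 0.11, adjusted p = 0.449 from limma), and the stably expanded group lay above them by 0.12 (SE 0.10, adjusted p = 0.897). Dnajc1 on the other strand overlaps Mllt10 and had 504 to 1130 reads.

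Mllt1, which encodes the reader ENL on chromosome 17 (56892611 to 56935415), was the steadiest of the 10 genes, with a 1.33-fold range over the 9 libraries. Normalized reads were 786, 836 and 789.5 in the pre-malignant, 956, 932 and 1046 in the de novo expanded, and 1011, 864 and 879.7 in the stably expanded libraries. Every leukemic library exceeded every pre-malignant one. The log2 differences were 0.30 (SE 0.10, adjusted p = 0.406 from limma) and 0.19 (SE 0.11, adjusted p = 0.3) for de novo and stably expanded, respectively.

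Its relative Mllt3 encodes AF9 and has been tied to stem cell maintenance in human blood. It had 76.7, 109.8 and 126 normalized reads in the pre-malignant, 90.0, 105 and 49.6 in the de novo expanded and 33.5, 50.5 and 53.7 in the stably expanded group. The stably expanded libraries lay below all pre-malignant ones, and de novo expanded library 3 lay within the stably expanded range. Mllt3 averaged 104 ± 24.9 (SD, n = 3) in the pre-malignant and 45.9 ± 10.9 in the stably expanded group. The log2 difference was -1.16 (SE 0.31, adjusted p = 0.0453 from limma) or 2.24-fold. The call lies near the threshold. It was lost after leaving out any of pre-malignant libraries 1 to 3 or stably expanded library 1 or 2 (adjusted p from 0.0591 to 0.142), after quantile normalization (0.0569) and in 1 fit of all 9 libraries (0.134). De novo expanded libraries differed from pre-malignant ones by -0.36 (SE 0.35, adjusted p = 0.721).

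Taken as a ratio within each library, which does not depend on scaling, Mllt3 over Mllt1 was 0.0976, 0.131 and 0.159 in the pre-malignant group. It was 0.0942, 0.113 and 0.0474 in the de novo expanded and 0.0331, 0.0584 and 0.0611 in the stably expanded group. The stably expanded libraries did not overlap with the pre-malignant ones, and the log2 ratio differed by -1.35. The exact two-sided permutation test of 3 against 3 libraries gave p = 0.1, the smallest it allows (0.45 after adjustment over 9 ratio tests).

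**Figure D3:**
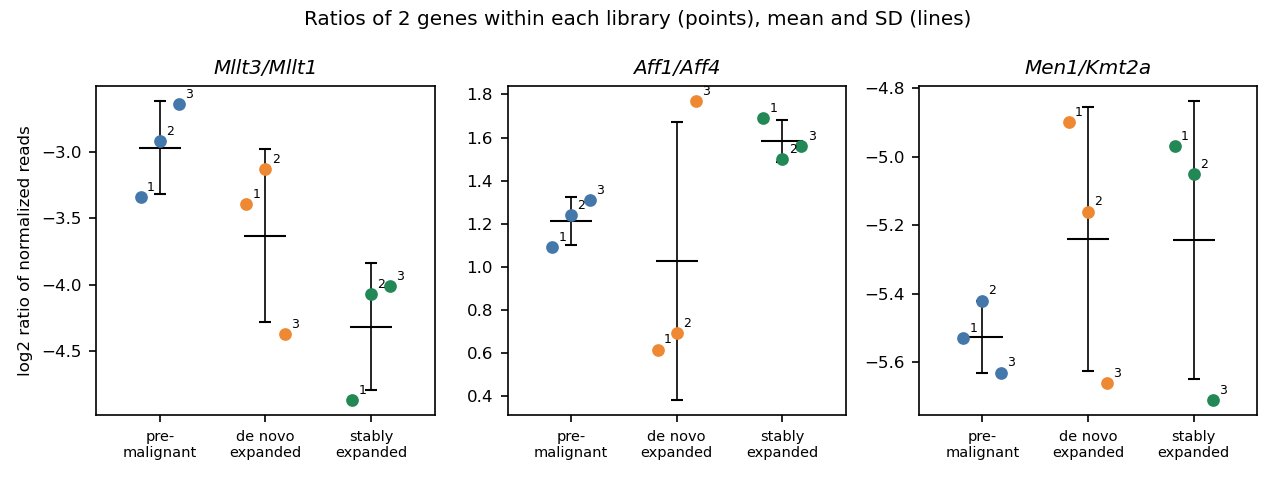
Log2 ratios of normalized reads within each library for Mllt3 over Mllt1, Aff1 over Aff4 and Men1 over Kmt2a. Points are libraries with their number, long lines and bars are group means and SD (n = 3). The stably expanded libraries lie below the pre-malignant ones for Mllt3/Mllt1 and above them for Aff1/Aff4.

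The genes whose pattern over the 9 libraries was nearest to that of Mllt3, by root mean square distance of centred log2 levels among 13959 genes, were Pecam1 (0.208), which encodes the adhesion molecule CD31, Ms4a6b (0.22) and Zeb2 (0.225), a transcription factor of blood cell development. Pecam1 had 3198 to 3362 normalized reads in pre-malignant, 2585, 3301 and 1380 in de novo expanded and 1239 to 1960 in the stably expanded libraries. Since Pecam1 was picked for this pattern, its lower level in de novo expanded library 3 than in libraries 1 and 2 is no separate finding.

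Among the scaffold genes, Aff3, first described as a lymphoid nuclear protein (LAF4), varied most of the 10 genes, 25.1-fold over the libraries. Its levels were 345, 276 and 313 normalized reads in pre-malignant, 749.9, 769 and 30.7 in de novo expanded, and 38.0, 56.9 and 98.0 in stably expanded libraries 1, 2 and 3. De novo expanded libraries 1 and 2 lay above all pre-malignant libraries, and library 3 lay below all other libraries. In reads as counted, library 3 held 34 Aff3 reads and libraries 1 and 2 held 658 and 882.

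Aff3 averaged 311 ± 34.2 (SD, n = 3) normalized reads in the pre-malignant and 64.3 ± 30.7 in the stably expanded group. The log2 difference was -2.36 (SE 0.31, adjusted p = 0.00374 from limma), or 5.12-fold. Leaving out each library in turn gave -2.71 to -2.04, and each of these fits called the gene. In 1 fit of all 9 libraries, where the spread of the de novo expanded group enters, the adjusted p was 0.249.

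For the de novo expanded group the mean of Aff3 was 516 ± 421 normalized reads, and the log2 difference from pre-malignant was -0.22 (SE 1.13, adjusted p = 0.962 from limma). Without library 3 it was 1.31 (SE 0.15, adjusted p = 0.00161), a call in the other direction. Stably over de novo expanded, Aff3 differed by -2.12 (SE 1.17, adjusted p = 0.891), and by -3.65 (SE 0.35, adjusted p = 0.00107) without that library. The 4 libraries with fewer than 100 normalized reads of Aff3 were also the 4 with the lowest B cell sums, 1039 to 1495, and the 4 with the highest late neutrophil sums. The match did not extend to de novo expanded libraries 1 and 2, which had the most Aff3. Their B cell sums, 3063 and 2234, did not exceed the pre-malignant range of 3042 to 3718. Their late neutrophil sums were 2593 and 3041, against 2932 to 3355 in the pre-malignant group. The part of such cells in the Aff3 values was not tested. The genes nearest in pattern to Aff3 were Kcng1 (root mean square distance 0.505), a potassium channel subunit, Plxnb2 (0.577), a semaphorin receptor, and Tmem171 (0.624). Plxnb2, picked for this pattern, had 933.3, 884.8 and 37.88 normalized reads in de novo expanded libraries 1, 2 and 3.

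Aff1 encodes AF4, the partner in the most common MLL fusion of infant leukemia. It had 4043, 4061 and 3944 normalized reads in the pre-malignant, 2111, 2594 and 5564 in the de novo expanded and 5145, 4483 and 4906 in the stably expanded group. The pre-malignant libraries were nearly identical, all stably expanded ones lay above them, and the de novo expanded libraries held both the lowest and the highest value. The stably expanded over pre-malignant log2 difference was 0.27 (SE 0.09, adjusted p = 0.0777 from limma). Over the de novo expanded libraries the stably expanded ones differed by 0.63 (SE 0.33, adjusted p = 0.891), and by 1.05 (SE 0.12, adjusted p = 0.00214) without library 3. Without it, Aff1 also lay below pre-malignant by -0.76 (SE 0.11, adjusted p = 0.00486), under 2-fold.

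De novo expanded library 3 had the highest level of Aff1 and the lowest of Aff3 among the 9 libraries. Aff1 over Aff3, a ratio described after the values were seen and not tested, was 11.7, 14.7 and 12.6 in pre-malignant, 2.81, 3.37 and 181 in de novo expanded, and 135, 78.8 and 50 in stably expanded libraries 1, 2 and 3. De novo expanded libraries 1 and 2 thus had the lowest and library 3 the highest ratio of all 9.

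**Figure D4:**
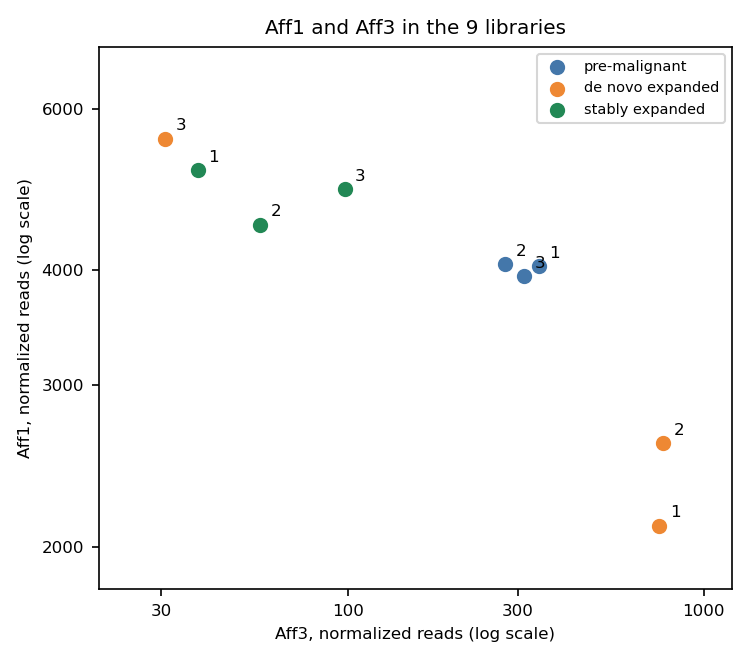
Aff1 against Aff3 in normalized reads, both on log axes, with 1 point per library and its number in the group. Pre-malignant libraries sit together at 276 to 345 reads of Aff3, de novo expanded libraries 1 and 2 at the lower right, and library 3 at the upper left beside the stably expanded libraries.

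Aff4, a central scaffold of the super elongation complex, lies on chromosome 11 (53350833 to 53421830). Normalized reads were 1903, 1715 and 1594 in the pre-malignant, 1377, 1603 and 1629.8 in the de novo expanded, and 1595, 1585 and 1663 in the stably expanded libraries, and all groups overlapped. Its log2 differences from pre-malignant were -0.16 (SE 0.12) and -0.10 (SE 0.10) in the de novo and stably expanded libraries. Aff1 over Aff4 within a library was 2.12, 2.37 and 2.47 in the pre-malignant, 1.53, 1.62 and 3.41 in the de novo expanded, and 3.23, 2.83 and 2.95 in the stably expanded group. The log2 ratio was higher by 0.37 in the stably expanded than in the pre-malignant group without overlap, with p = 0.1 in the exact permutation test (adjusted 0.45).

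The other genes of the machinery were read from 5 lists. For the counts below, the shares of all genes at an unadjusted p under 0.05 were 11.3%, 25.4% and 4.83% in the order of the comparisons above. In the list of MLL complex and COMPASS subunits, 18 of 19 genes were tested and 0 were called by limma or edgeR in any comparison, with 6, 7 and 2 at an unadjusted p under 0.05 (in the order of the comparisons above). Their median log2 differences were -0.06, -0.14 and -0.01. Ash2l, a core subunit of all such complexes, had 1325, 1666 and 1436 normalized reads in the pre-malignant, 1135, 1615 and 1439 in the de novo expanded, and 1976, 2243 and 2008 in the stably expanded group. The stably expanded libraries lay above all others, with a log2 difference of 0.50 (SE 0.11, adjusted p = 0.0233 from limma) from pre-malignant, under 2-fold, and 0.58 (SE 0.15, adjusted p = 0.891) from de novo expanded. For Kmt2c (MLL3) the de novo expanded over pre-malignant log2 difference was -0.40 (SE 0.12, adjusted p = 0.384).

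Of the super elongation complex and P-TEFb list, 14 of 15 genes were tested and limma and edgeR called 0 in any comparison (3, 2 and 0 at an unadjusted p under 0.05, medians -0.0049, -0.11 and 0.01). Hexim1, an inhibitor of P-TEFb, had 1552, 1521 and 1666 normalized reads in the pre-malignant, 1096, 1052 and 896.5 in the de novo expanded, and 979, 967.8 and 1109 in the stably expanded libraries. All leukemic libraries lay below all pre-malignant ones, by a log2 difference of -0.63 (SE 0.10, adjusted p = 0.0073 from limma) in the stably and -0.62 (SE 0.11, adjusted p = 0.32) in the de novo expanded group, both under 2-fold. Eaf2, an ELL-associated factor, had the smallest p between the leukemic groups (log2 difference 0.89, SE 0.49, adjusted p = 0.891). Its levels were low, 5.698 to 8.717 normalized reads in the de novo and 9.953 to 20.15 in the stably expanded libraries.

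All 6 genes of the PAF1 complex, an elongation complex that binds MLL, were tested and 0 were called by limma or edgeR (1, 0 and 0 at an unadjusted p under 0.05, medians 0.06, 0.08 and 0.07). Leo1 differed from pre-malignant by 0.27 (SE 0.10, adjusted p = 0.417) in the de novo and 0.29 (SE 0.13, adjusted p = 0.202) in the stably expanded libraries, and Cdc73 by 0.17 (SE 0.10, adjusted p = 0.891) between the leukemic groups.

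Of 22 further MLL fusion partner genes, 20 were tested between de novo expanded and pre-malignant libraries and 21 in the other comparisons. Limma called 0 (7, 11 and 1 at an unadjusted p under 0.05, medians -0.09, -0.04 and -0.02), and edgeR 0, 1 and 0. The 1 was Gphn, which encodes gephyrin, with 70.6, 106 and 10.7 normalized reads in the stably expanded and 4.62 to 9.3 in the pre-malignant libraries. Gas7, a growth arrest gene, had 581, 618.8 and 762.7 normalized reads in the pre-malignant and 997.2 to 1272 in all 6 leukemic libraries. Its log2 difference was 0.84 (SE 0.13, adjusted p = 0.00636 from limma) in the stably and 0.82 (SE 0.15, adjusted p = 0.32) in the de novo expanded group, under 2-fold. Also under 2-fold, with an adjusted p under 0.05 in the stably expanded libraries and named after their values were seen, were the acetyltransferase gene Crebbp (-0.36), Arhgap26 (-0.55) and Sept11 (0.35).

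Of 20 target genes of MLL and menin, 15 were tested. The list members Hoxa9 and Meis1 are also carried by the vector, whose reads cannot be told apart from those of the endogenous genes. Limma called 1 of 15, in the stably expanded over pre-malignant comparison (2.75% of all genes), and edgeR 0 in each, with 1, 6 and 0 at an unadjusted p under 0.05 and medians of -0.06, -0.05 and -0.01. That gene was Bcl2, an inhibitor of apoptosis, with 1081, 1125 and 1460 normalized reads in the pre-malignant, 2207, 1814 and 211.9 in the de novo expanded, and 436.1, 907.2 and 513 in the stably expanded libraries. As for Aff3, de novo expanded libraries 1 and 2 were highest and library 3 lowest of all 9. Bcl2 was lower by a log2 difference of -1.04 (SE 0.23, adjusted p = 0.0247 from limma) in the stably expanded than in the pre-malignant group. The call was lost under edgeR and DESeq2 (-0.98 in each, under 2-fold), in 1 fit of all 9 libraries (adjusted p = 0.46 from limma) and in 5 of 6 fits that left out a library, all but that without stably expanded library 2. Runx1 (-0.70, adjusted p = 0.00583) and Cdkn1b (-0.48, adjusted p = 0.0258), named after their values were seen, were lower in the same comparison by under 2-fold. Cdkn1b had the smallest p of the list between de novo expanded and pre-malignant libraries (log2 difference -0.44, SE 0.17, adjusted p = 0.423 from limma). Between the leukemic groups it was Arid3b (1.26, SE 0.54, adjusted p = 0.891).

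**Figure D5:**
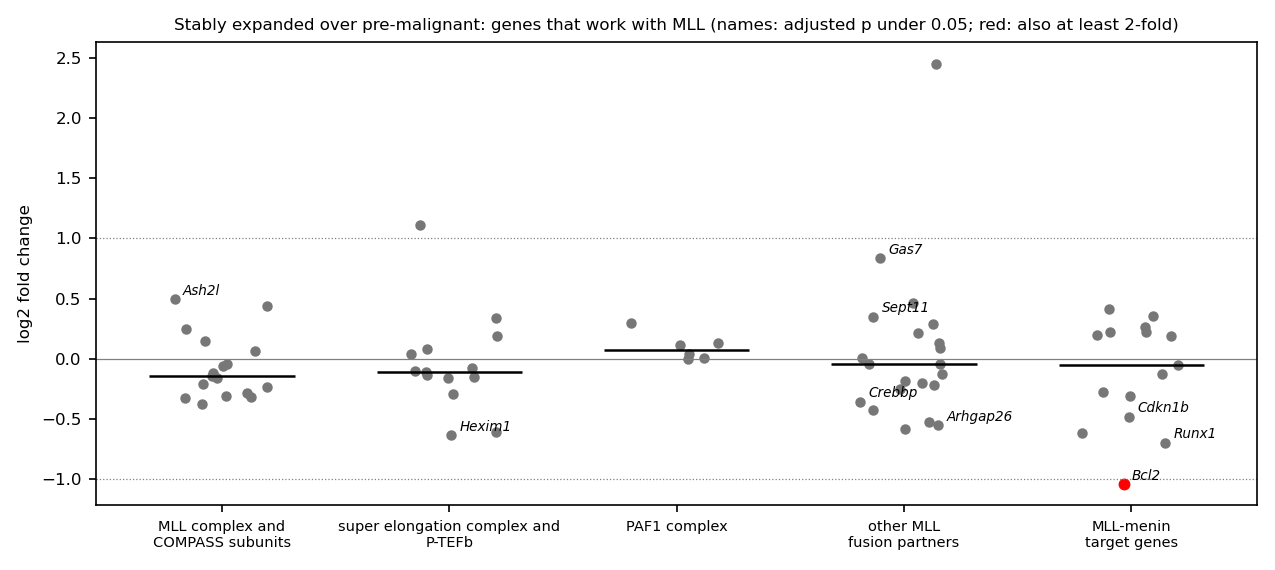
Log2 fold change, stably expanded over pre-malignant, of every tested gene in the 5 lists. Points are genes, horizontal bars are list medians and dotted lines mark 2-fold. Named genes have an adjusted p under 0.05, and Bcl2 (red) is also at least 2-fold.

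Without de novo expanded library 3, an alternative added after seeing the data for these lists, the counts were 1 of 20 fusion partners and 2 of 15 target genes in the de novo expanded over pre-malignant comparison, beside 1.5% of all genes. Between the leukemic groups they were 2 of 21 fusion partners and 4 of 15 target genes, beside 3.69% of all genes. Flt3, which encodes a cytokine receptor of progenitors, had 3034 and 4006 normalized reads in de novo expanded libraries 1 and 2 against 1013 in library 3, 1117 to 1514 in the pre-malignant and 553 to 1345 in the stably expanded libraries. It was then called higher than pre-malignant by 1.51 and lower in the stably expanded group by -1.80. Arid3b moved the opposite way, by -1.49 and 1.92. With all libraries its log2 differences were -0.82 (adjusted p = 0.578 from limma) and 1.26 (adjusted p = 0.891). Sept11 was called higher in the first of these comparisons (1.03), and in the second Bcl2 (-1.76), Mef2c (-1.17) and Mllt6 (-1.36) were called lower and Aff2 (1.35) higher, all named after their values were seen.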

How the data were processed

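RNA was measured in 9 libraries, 3 per group, made with a stranded total RNA kit and sequenced in a common run. The authors processed reads with nf-core/rnaseq (Trim Galore 0.6.4, STAR 2.6.1d and featureCounts 1.6.4 per the labels) on GRCm38.p6 with GENCODE annotation, and deposited, for each of 3 pairs of groups, read counts per gene divided by DESeq2 size factors, a signal per library, together with exon lengths. Their columns of base means, fold changes, standard errors, Wald statistics and p-values were not used. Whole reads were recovered to within 0.05 for at least 99.98% of nonzero values, and 0 values differed between tables. A total of 987 rows carried no gene name.

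The main test was limma 3.58.1 in R 4.3.3, run as eBayes with a trend, on log2 of normalized counts plus 1, for genes averaging at least 10 over the 6 libraries. The same fit was also run on simulated data. Levels shown per library use size factors over all 9 libraries. Ratios within libraries were compared by exact permutation. Alternatives were pseudocounts of 0.1 and 5, no filter or a mean of at least 50, centring on the median, quantile normalization, edgeR 4.0.16 and DESeq2 1.42.0 on the recovered reads, 1 fit of all 9 libraries, no fold limit, and leaving out each library. An item of the cell line and vector design is not reported here. The 10 genes, the 5 gene lists and the 7 marker lists (the sort and lineage genes among them) were chosen with earlier results of these data known. Named are all 10 genes, list genes that were called or had the smallest p-value of a list without calls, and the 3 genes nearest in pattern to each called gene.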

Additional observations from a re-analysis of the deposited data

How the results depend on the processing

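No paired analysis was possible because the labels tie no column of the tables to a clone or mouse. Left-out fits of a group with 2 remaining libraries used limma's spread pooled over both groups. Of the 10 genes, 0 were called between de novo expanded and pre-malignant libraries under every alternative except 1 (Aff3) without de novo expanded library 3, a range of 0 to 1. Over all genes the count of 0 became 5 with no filter on low values, 42 with DESeq2, 5 in 1 fit of all 9 libraries, and 0 to 214 on leaving out a library, 214 without de novo expanded library 3. The log2 difference of Aff3 turned to 0.74 with edgeR and 0.75 with DESeq2, and ranged from -0.99 to 1.31 on leaving out a library. Between stably expanded and pre-malignant libraries, the 2 genes called became 1 after quantile normalization, 0 in 1 fit of all 9 libraries, and 1 to 2 on leaving out a library. It was 1, Aff3, without pre-malignant library 1, 2 or 3 or stably expanded library 1 or 2. The 384 genes called became 1110 with no fold limit, 6 in the fit of all 9 libraries and 206 to 452 on leaving out a library (240, 206 and 219 without pre-malignant libraries 1, 2 and 3, and 208 without stably expanded library 1). Between the leukemic groups, 0 of the 10 became 0 to 2 and the 1 gene called overall became 0 to 508 on leaving out a library, both highest without de novo expanded library 3. Dropping de novo expanded library 1 gave 2, and dropping any single stably expanded library gave 0. It was 2 with no filter, 29 with DESeq2 and 2 in the fit of all 9 libraries. Small differences also changed sign on leaving out a library. These were Men1 between de novo expanded and pre-malignant (-0.28 to 0.0088) and, between the leukemic groups, Kmt2a (-0.18 to 0.0102), Men1 (-0.31 to 0.085), Psip1 (-0.14 to 0.057) and Aff4 (-0.0054 to 0.12). The log2 ratio Aff1/Aff4 between de novo expanded and pre-malignant ranged from -0.56 to 0.0201, and Men1/Kmt2a between the leukemic groups from -0.21 to 0.23. Where 1 library or a tool changed a call, the cause was not tested. Read numbers were low for Mllt3 (37 to 136 per library), for Men1 (59 to 151) and for Aff3 in de novo expanded library 3 (34) and the stably expanded libraries (42, 62 and 73).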
